A study of Rattus norvegicus with 11 samples.

Results

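Mitochondrial carrier genes were followed in the soleus muscle of 11 male rats. The family was taken as every row of the count table whose symbol begins with Slc25a and a digit, plus the uncoupling protein genes Ucp1, Ucp2 and Ucp3. This gave 42 of 16810 rows. Of these, 36 passed the filter on low counts and were tested, and 6 did not. Mcart1, which RefSeq now calls Slc25a51, lies outside the rule by its name and is not among the 42. It enters only a list of other mitochondrial transporters below. The aspartate-glutamate carrier genes Slc25a12 and Slc25a13 and some other carriers of the family are not analysed here.

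The animals were Sprague Dawley males aged 12 months. The control group (n = 6) came from mothers on a normal fat diet, given in the labels as 6% or 7% fat with 10% sucrose. The high-fat group (n = 5) came from mothers on a diet rich in saturated animal fat, given as 23.3% or 23.5% fat with 20% sucrose, fed for 3 weeks before mating and then until the end of lactation. All pups were weaned at day 21 onto the same standard chow and stayed on it, so the label that separates the groups is the mother's diet. Tissue was taken after a short fast. Each animal came from a different litter and was its own replicate.

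Carriers of this family sit in the inner membrane of the mitochondrion and move nucleotides, phosphate, keto acids, amino acids, acylcarnitines, cofactors and iron between matrix and cytosol. In muscle the ADP/ATP carrier Slc25a4 (ANT1) and the phosphate carrier Slc25a3 feed ATP synthase and export its product, while Slc25a20 brings in acylcarnitines for oxidation. Uncoupling proteins are members of the same family. Ucp1 lets protons back across the membrane in brown fat, Ucp3 is the muscle form and responds to fatty acids, and Ucp2 is widespread and abundant in immune cells.

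Promoter sequences are shown for the ADP/ATP carrier pair Slc25a4 and Slc25a5 and for Ucp3 and Slc25a25, because the main results below turn on these genes. Each is the 250 bases before the RefSeq start site, 5′ to 3′ on the gene's strand, in build GRCr8. Capitals mark TATAA in Slc25a4 and Slc25a5, the nuclear receptor half-site AGGTCA in Ucp3, and the cyclic AMP response element TGACGTCA in Slc25a25.
Slc25a4 (chr16:52805271-52805520, + strand): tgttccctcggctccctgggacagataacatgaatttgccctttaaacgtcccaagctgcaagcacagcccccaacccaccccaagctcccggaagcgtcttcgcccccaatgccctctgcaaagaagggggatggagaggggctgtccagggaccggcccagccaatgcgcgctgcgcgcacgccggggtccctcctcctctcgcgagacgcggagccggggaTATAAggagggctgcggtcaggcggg
Slc25a5 (chrX:120897366-120897615, + strand): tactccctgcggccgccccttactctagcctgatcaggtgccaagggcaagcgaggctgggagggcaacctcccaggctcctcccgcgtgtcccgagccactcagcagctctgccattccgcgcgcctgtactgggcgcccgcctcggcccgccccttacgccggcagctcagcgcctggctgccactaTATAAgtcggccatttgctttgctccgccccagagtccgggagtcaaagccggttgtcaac
Ucp3 (chr1:164227660-164227909, + strand): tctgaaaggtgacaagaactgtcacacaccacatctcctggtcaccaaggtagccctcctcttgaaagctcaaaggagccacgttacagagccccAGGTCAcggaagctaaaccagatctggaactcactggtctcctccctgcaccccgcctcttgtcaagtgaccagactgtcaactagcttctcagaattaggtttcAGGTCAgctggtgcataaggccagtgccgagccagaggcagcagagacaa
Slc25a25 (chr3:36116582-36116831, - strand): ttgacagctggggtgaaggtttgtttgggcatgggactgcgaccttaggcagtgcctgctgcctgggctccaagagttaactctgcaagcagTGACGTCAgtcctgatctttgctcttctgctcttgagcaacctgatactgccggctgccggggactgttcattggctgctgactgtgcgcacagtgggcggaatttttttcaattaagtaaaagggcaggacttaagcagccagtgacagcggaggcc
In all, 17 words were searched on both strands in the same window of all 33469 RefSeq promoters in the table, of which 36 belong to these carriers. The 3 words in capitals, and the promoters shown, were chosen after the matches and the counts had been seen, so a match here is a description of letters only. TATAA was found in 24.0% of all promoters and in 4 of the 36, those of Slc25a4, Slc25a5, Slc25a38 and Ucp1. AGGTCA was found in 14.1% of all promoters and in 7 of the 36, and it occurred 2 times in that of Ucp3. TGACGTCA was found in 1.59% of all promoters and in 2 of the 36, those of Slc25a25 and Slc25a33. Of the other 14 words, the commonest were CCAAT (34.0% of all promoters, 19 of the 36), GGGCGG, the core of the GC box (30.5%, 20 of the 36), TGACG, which lies inside TGACGTCA (18.2%, 9 of the 36), AGAACA (17.5%, 3 of the 36), TATAAA, which holds TATAA (12.9%, 2 of the 36), and CAGCTG (12.0%, 5 of the 36). CACGTG was found in 5.59% (2 of the 36), AAGGTCA, which holds AGGTCA, in 3.99% (1 of the 36), and TGACGCA in 1.66% (2 of the 36). TTCCNGGAA (1.07%), TTGCGCAA (0.140%) and 3 longer words, a palindromic NRF-1 site (0.762%), a DR1 repeat of AGGTCA (0.00896%) and a palindromic NF-kappaB site (0.00299%), were found in 0 of the 36. Slc25a5 held GGGCGG 3 times, all on the other strand, and Slc25a4 held CCAAT 2 times. In Ucp3 a CAGCTG overlaps the end of the AGGTCA nearer the start.

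Libraries held 10156225 to 15362013 counted reads. Slow muscle markers, the genes that define soleus fibres, summed to 61317 to 83032 CPM (counts scaled to a common library size) in the control group and 57042 to 80785 CPM in the high-fat group. Fast fibre markers ranged widely, from 1964 to 35283 CPM in the control group and from 3389 to 26905 CPM in the high-fat group. By group mean the troponin gene Tnnt3 was the largest part of this sum, at 1239 to 28073 CPM and 2467 to 20614 CPM. Of 9 fast markers tested, 8 had lower means in the high-fat group (median log2 fold change -0.74), and of 8 slow markers 7 did (median -0.09), with 0 called in either list. Over all genes tested, 49.1% had lower means. The part of fibre markers in the carrier values was not tested. Macrophage markers ran from 656 to 1959 CPM and from 522 to 2759 CPM, and adipocyte markers from 572 to 948 CPM and from 503 to 912 CPM, in the same order. Over all 10814 genes tested, the quasi-likelihood test of edgeR called 0 (0%) at a Benjamini-Hochberg adjusted p under 0.05 (smallest adjusted p = 0.471), while 523 (4.84%) had an unadjusted p under 0.05. DESeq2 called 7 and edgeR's likelihood ratio test 8, none of them carriers.

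Of the 42 members, 37 had a count in every library. Shares below are of the reads on these 42 rows, so carriers not analysed here are outside them. CPM here are scaled by library and not divided by transcript length, so they order genes by reads and not by molecules. Slc25a4 took 62.7% of the reads on the 42 members and Slc25a3 took 24.2%. The oxoglutarate carrier gene Slc25a11, which serves the malate-aspartate shuttle, took 2.70%, and the acylcarnitine carrier gene Slc25a20 took 2.63%. Together these 4 genes held 92.2%. Reads on the 42 members made up 0.744% to 1.15% of a library, lowest in high-fat animal 5 and highest in control animal 6. By the median over animals, 2 members stood over 1000 CPM, 2 between 100 and 1000 CPM, 23 between 10 and 100 CPM, 9 between 1 and 10 CPM and 6 under 1 CPM.

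**Figure D1:**
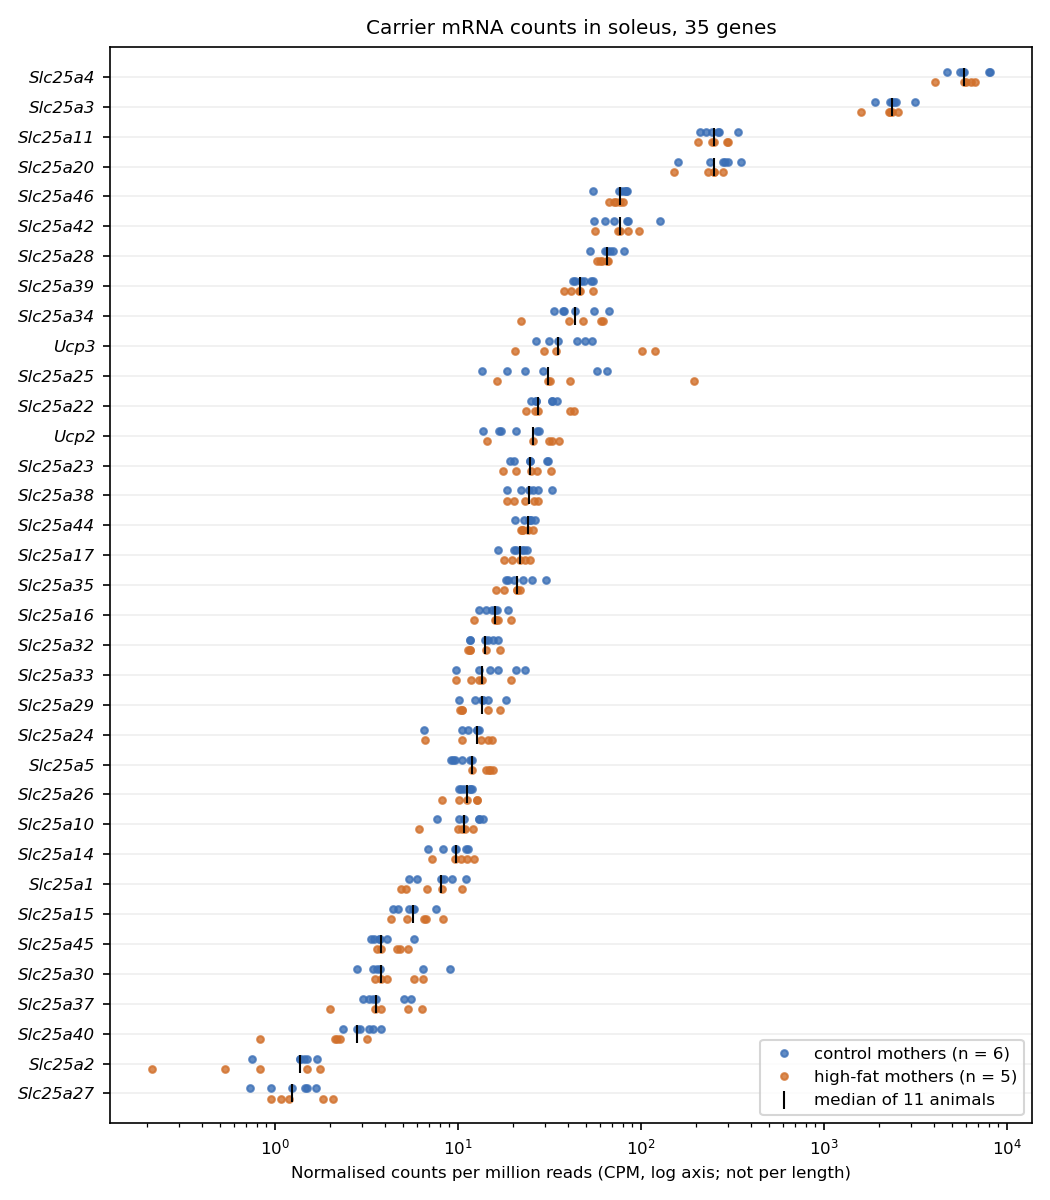
CPM (log axis, not per length) of 35 of the 36 tested carriers, 1 point per animal, blue for control (n = 6) and orange for high-fat mothers (n = 5), with the median as a black tick. Slc25a4 and Slc25a3 stand apart from the rest, and on the high-fat side Slc25a25 spreads from 16.4 to 196 CPM, Slc25a2 from 0.213 to 1.76 CPM and Ucp3 from 20.6 to 120 CPM.

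The 6 members that were not tested were barely detected. Ucp1 had 3 counts over all 11 libraries and 0 in 8 of them, where a count of 0 allows up to 0.195 to 0.284 CPM depending on the library. Adipocyte markers were present at the levels given above in the same libraries. Slc25a41 and Slc25a54 had 1 count each in all. Slc25a21, a carrier of oxoadipate, had 21 counts in all, the liver gene Slc25a47 had 24 and the glutamate carrier gene Slc25a18 had 59. These limits cover counting error only.

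No carrier was called between the diets in the edgeR fit over all genes (smallest Benjamini-Hochberg adjusted p among carriers 0.974). Of the 36 tested, 15 had a higher and 21 (58.3%) a lower log2 fold change in the high-fat group, against 49.1% lower over all genes tested. Their median log2 fold change was -0.04, against 0.004 over all genes. It turned positive, 0.016, without control animal 6. Only Slc25a5 (2.78% of carriers) had an unadjusted p under 0.05, against 4.84% of all genes. Over all genes 3.45% had such a p with a higher mean and 1.39% with a lower one. In no carrier did the groups fail to overlap, against 0.370% of all genes. Log2 fold changes ran from -0.54 for Slc25a40 to 0.87 for Slc25a25, and 29 of 36 lay within 0.25 of 0.

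**Figure D2:**
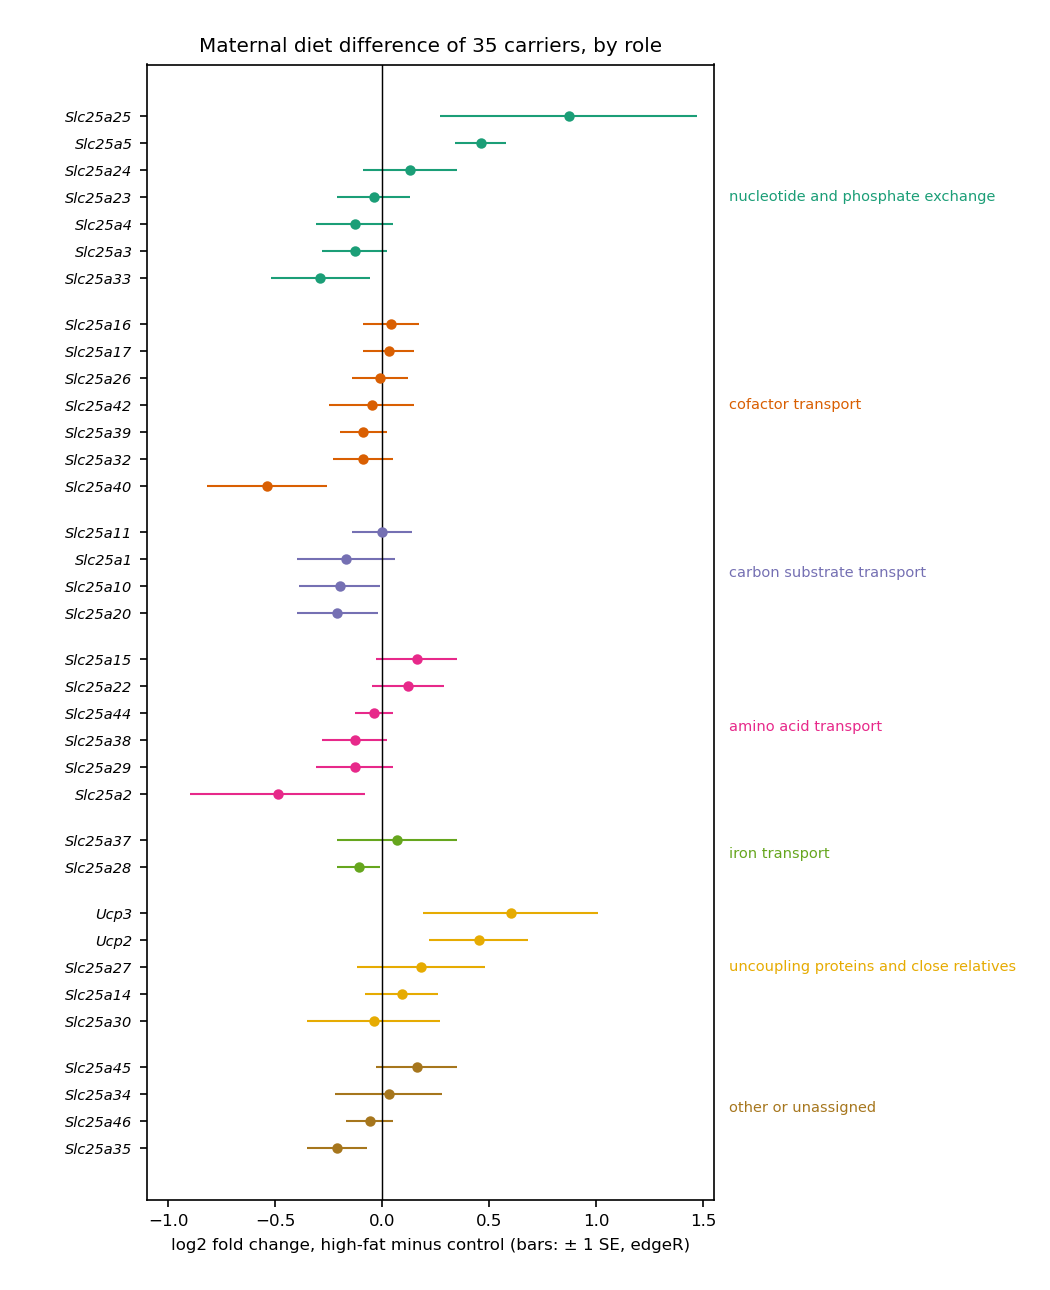
Log2 fold change, high-fat minus control, of 35 of the 36 tested carriers with ± 1 SE from edgeR, grouped by role. Slc25a5 at 0.46 has a short bar, while Slc25a25 at 0.87 and Ucp3 at 0.60 have the long bars of genes that differ strongly among animals. These bars and several others stay clear of 0, but a bar of 1 SE is not a test, and 0 carriers were called.

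Among nucleotide and phosphate carriers, 7 of 8 were tested, with 3 higher and 4 lower means (median log2 fold change -0.04), and 0 were called. Slc25a5 (ANT2), the ADP/ATP carrier of dividing and non-muscle cells, had the smallest p of all carriers. Its level was 9.21, 9.37, 9.63, 10.6, 11.6 and 12.0 CPM in control animals 4, 2, 1, 6, 5 and 3. In high-fat animals 1 to 5 it was 14.8, 14.3, 15.0, 15.6 and 11.9 CPM. High-fat animals 1 to 4 thus lay above all controls, and animal 5 lay level with the highest control. The means were 14.3 ± 1.40 CPM (SD, n = 5) and 10.4 ± 1.18 CPM (SD, n = 6), which gave a fold change (log2) of 0.46 ± 0.12 (SE) with an unadjusted p of 0.00167 and an edgeR adjusted p of 0.974. Other fits, those without 1 animal included, gave log2 fold changes of 0.43 to 0.52 and adjusted p of 0.220 (DESeq2) to 1.000. All 5 high-fat animals exceeded the mean of controls. The macrophage score (mean log2 deviation of 17 markers) was lowest in high-fat animal 2, at -1.20, and highest in high-fat animal 5, at 1.38. Slc25a5 stood at 14.3 and 11.9 CPM in these animals. High-fat animal 4, with the highest Slc25a5, at 15.6 CPM, had a score of 0.68. The relation of Slc25a5 with the macrophage score was not tested. RefSeq's GRCr8 table lists 9 pseudogenes named after Slc25a5, followed by 8 for Slc25a39, and the sources used here do not give how short reads were divided among such copies. Its level is therefore uncertain.

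**Figure D3:**
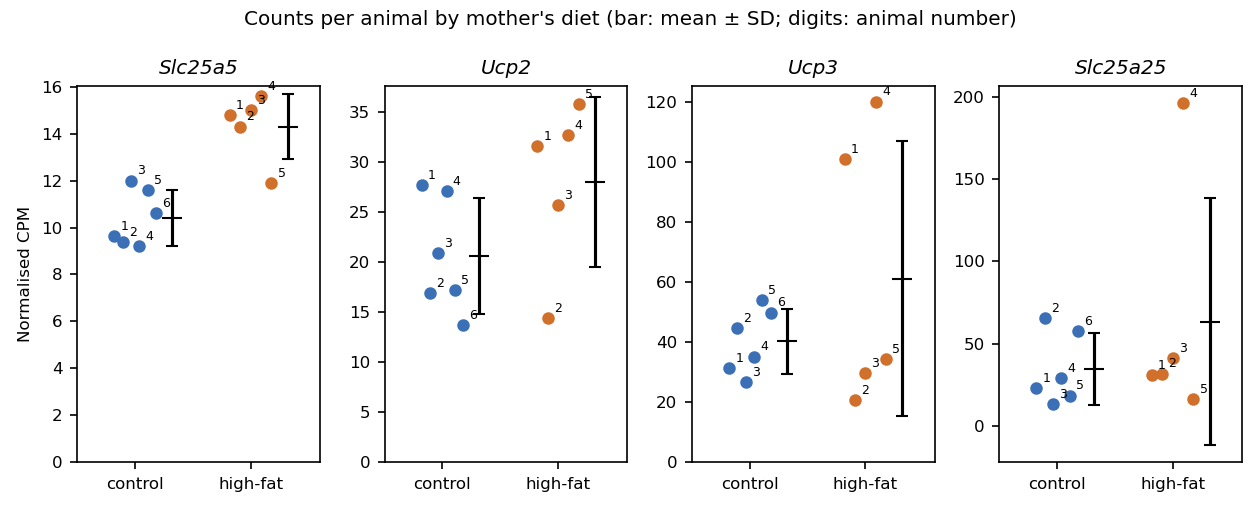
Normalised CPM of Slc25a5, Ucp2, Ucp3 and Slc25a25 in each animal (digits are animal numbers), with the group mean ± SD as a bar. Slc25a5 lies at 14.3 to 15.6 CPM in 4 of 5 high-fat animals and at 9.21 to 12.0 CPM in controls. Ucp3 is high in high-fat animals 1 and 4, and Slc25a25 in animal 4 alone.

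Slc25a4 (ANT1), the muscle ADP/ATP carrier, ran from 4718 to 8102 CPM in the control group, with a median of 5797 CPM. In high-fat animals 1 to 5 it was 6381, 6697, 5966, 5872 and 4055 CPM. The groups overlapped over most of their range, with control animals 4 and 6 highest and high-fat animal 5 lowest. The means were 5794 ± 1027 CPM (SD, n = 5) and 6327 ± 1403 CPM (SD, n = 6), which gave a fold change (log2) of -0.13 ± 0.18 (edgeR adjusted p = 0.976). Without high-fat animal 5 it was -0.02. Slc25a3, the phosphate carrier, was also highest in control animal 6 and lowest in high-fat animal 5. High-fat animals 1 to 5 had 2363, 2555, 2268, 2300 and 1601 CPM, against 1896 to 3143 CPM (median 2384) among controls, and the log2 fold change was -0.13 ± 0.15 (-0.04 without high-fat animal 5).

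The ratio of Slc25a4 to Slc25a5 lets library scaling largely cancel and compares the muscle form with the general one. It was 394 to 872 among control animals and 340 to 469 among high-fat animals (ratio of CPM, not per length). High-fat animals lay in the lower part of the control range or under it. On the log2 scale it was 8.63 ± 0.18 (SD, n = 5) against 9.21 ± 0.41 (SD, n = 6), a difference of -0.58 (exact permutation test over all splits, two-sided, p = 0.0216; 0.0649 after adjustment for 3 ratios). Without control animal 3 the difference was -0.70 with an adjusted p of 0.0238 in the exact permutation test. The other 10 runs without 1 animal, and 2 with another prior count or scaling, did not pass the 0.05 threshold. Over all fits without 1 animal it ran from -0.70 to -0.47. The ratio is built from the same counts as the log2 fold changes of Slc25a4 (-0.13) and Slc25a5 (0.46), so it is not a separate result. It shares the uncertainty in the level of Slc25a5 that comes with its pseudogenes.

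The ATP-Mg/phosphate carriers shift adenine nucleotides in or out of the matrix and are switched by calcium. Slc25a25, the inducible member, was the most variable carrier. High-fat animals 1 to 5 had 31.1, 31.9, 41.2, 196 and 16.4 CPM, against 23.3, 65.8, 13.5, 29.4, 18.6 and 57.8 CPM in control animals 1 to 6. High-fat animal 4 alone lay far above all others, and the remaining 10 animals overlapped. Its log2 fold change of 0.87 ± 0.60 (edgeR adjusted p = 0.974) turned to -0.21 without high-fat animal 4. The pooled SD within groups was 1.11 on the log2 scale, above 99.0% of all genes tested. The sister genes Slc25a23 (25.2 ± 5.03 CPM in controls) and Slc25a24 (11.2 ± 2.45 CPM) were steadier, with log2 fold changes of -0.04 ± 0.17 and 0.13 ± 0.22. The pyrimidine nucleotide carrier gene Slc25a33 ran from 9.79 to 23.4 CPM (median 15.9) in the control group. High-fat animals 1 to 5 had 19.5, 13.1, 11.8, 13.6 and 9.73 CPM (log2 fold change -0.29 ± 0.23). It was -0.45 without high-fat animal 1, -0.18 without high-fat animal 5 and -0.16 without control animal 6.

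Uncoupling proteins and their relatives had 5 of 6 members tested, with 4 higher means and 1 lower (median log2 fold change 0.18), and 0 were called. Ucp3 was at 101, 20.6, 29.6, 120 and 34.4 CPM in high-fat animals 1 to 5, against 31.4, 44.6, 26.7, 35.2, 53.9 and 49.8 CPM in control animals 1 to 6. High-fat animals 1 and 4 lay well above every control, while high-fat animal 2 lay below every control. The means were 61.1 ± 45.8 CPM (SD, n = 5) and 40.3 ± 10.8 CPM (SD, n = 6), which gave a fold change (log2) of 0.60 ± 0.41 (edgeR adjusted p = 0.974). Without high-fat animal 4 it was 0.20, and without high-fat animal 1 it was 0.35. The pooled SD of 0.81 exceeded that of 96.1% of genes tested.

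Ucp3 was set against adiposity and insulin. High-fat animals 1 and 4, with the highest Ucp3, also had the most fat, at 16.3% and 10.5% of body weight, against 3.74% to 8.6% in the other 9 animals. Over 11 animals Pearson's r between Ucp3 (log2 CPM) and fat as a share of body weight was 0.68 (permutation p = 0.0219; adjusted over 6 relations, 0.0263), and Spearman's rho was 0.47 (permutation p = 0.147; adjusted, 0.164). Without these 2 animals r was 0.01 (exact permutation p = 0.982), so the relation rests on them. It also missed the threshold without control animal 3 (r = 0.65, adjusted permutation p = 0.0542), without high-fat animal 1 (r = 0.52, 0.151) or without high-fat animal 4 (r = 0.67, 0.0640). With values centred within each diet group r was 0.69. With plasma insulin, r was 0.58 over 10 animals (permutation p = 0.0774; adjusted, 0.0774) and rho 0.48 (permutation p = 0.164; adjusted, 0.164). High-fat animal 3 had 2.57 ng/ml insulin and 29.6 CPM of Ucp3, and without it r was 0.84 (adjusted permutation p = 0.00607). Without high-fat animal 4 r was 0.36 (adjusted permutation p = 0.347). Without high-fat animals 3 and 4, the 2 farthest from the median insulin, r was 0.73 (exact permutation p = 0.0410; adjusted, 0.0616). The parts of fat, insulin and maternal diet in these values were not tested.

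Among 13 genes of fatty acid uptake and their PPAR and PGC-1 regulators, 9 had higher and 4 lower means (median log2 fold change 0.13), and 0 were called. Pdk4, a kinase that restrains pyruvate oxidation, was at 299, 113, 80.7, 446 and 95.6 CPM in high-fat animals 1 to 5, against 90.6 to 187 CPM in controls. It was thus high in the same 2 animals as Ucp3. Ppard, a lipid-sensing nuclear receptor, had 43.3 ± 9.51 CPM (SD, n = 5) against 30.7 ± 5.34 CPM (SD, n = 6), which gave a fold change (log2) of 0.50 ± 0.16 (edgeR adjusted p = 0.974). Ppargc1a, a coactivator of mitochondrial biogenesis, had 0.52 ± 0.28.

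Ucp2 was at 31.6, 14.4, 25.7, 32.7 and 35.8 CPM in high-fat animals 1 to 5, against 27.7, 16.9, 20.9, 27.1, 17.2 and 13.7 CPM in control animals 1 to 6. High-fat animals 1, 4 and 5 lay above all controls and high-fat animal 2 near the bottom of the control range. The means were 28.0 ± 8.45 CPM (SD, n = 5) and 20.6 ± 5.76 CPM (SD, n = 6), which gave a fold change (log2) of 0.45 ± 0.23 (edgeR adjusted p = 0.974). Of the 5 high-fat animals, 4 exceeded the mean of controls. Ucp2 varied with the macrophage score across the 11 animals (r = 0.87, permutation p = 0.000590 and adjusted p = 0.00177 by Pearson; rho = 0.89, permutation p = 0.000420 and adjusted p = 0.00126 by Spearman). Without high-fat animals 2 and 5 r was 0.80 (exact permutation p = 0.0131). All 17 macrophage markers themselves had log2 fold changes above 0 in the high-fat group (median 0.62), though that of Cd74 rounds to 0.00. Of these markers 0 were called, and none was at 0 in all animals. Of all genes tested, 49.1% had lower means. In bulk muscle, more cells of a type and more RNA per cell cannot be told apart. The share of macrophages in the diet difference of Ucp2 was not tested.

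The ratio of Ucp3 to Ucp2 compares the muscle form with the general form. Its log2 value was 0.84 ± 0.87 (SD, n = 5) in the high-fat group and 0.97 ± 0.74 (SD, n = 6) in the control group, a difference of -0.13 (exact permutation test, two-sided, p = 0.810; 0.810 after adjustment for 3 ratios). The brain-enriched relatives Slc25a27 (UCP4) and Slc25a14 (UCP5) had log2 fold changes of 0.18 ± 0.30 and 0.09 ± 0.17. Slc25a30, a kidney-enriched relative, had -0.04 ± 0.31. RefSeq places Ucp2 and Ucp3 side by side on 1 chromosome in GRCr8. High-fat animals 1 and 4 lay above every control in both genes, and high-fat animal 2 held the lowest Ucp3 with a Ucp2 of 14.4 CPM. High-fat animal 5 held the highest Ucp2 with a Ucp3 of 34.4 CPM, within the control range. The relation between Ucp2 and Ucp3 was not tested.

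**Figure D4:**
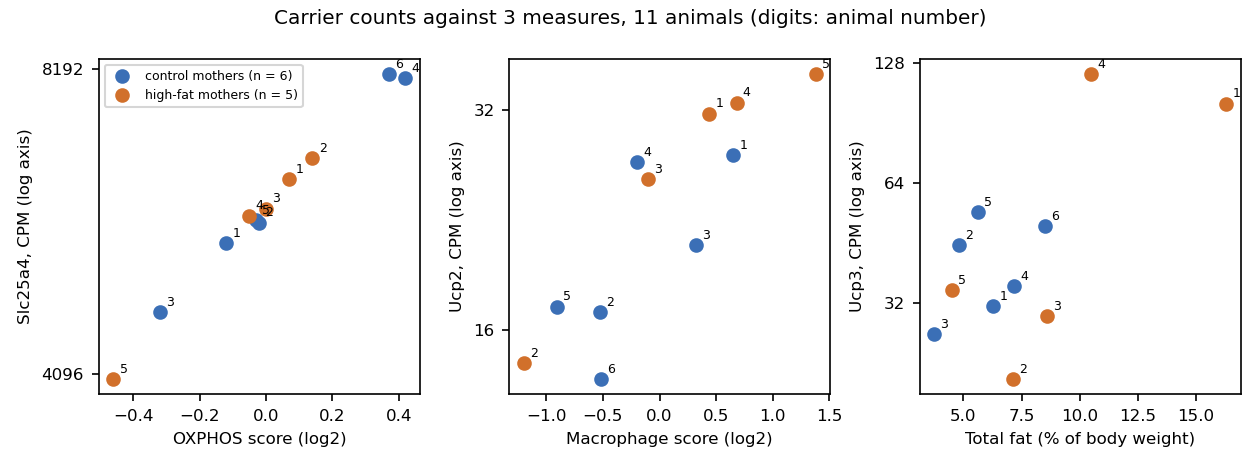
Carrier CPM (log axis) of 11 animals against the OXPHOS score (left, Slc25a4), the macrophage score (middle, Ucp2) and total fat as a percent of body weight (right, Ucp3), blue for control and orange for high-fat mothers, digits for animal numbers. Slc25a4 follows the OXPHOS score closely at r = 0.996, Ucp2 follows the macrophage score at r = 0.87, and in the Ucp3 panel high-fat animals 1 and 4 stand alone at the upper right.

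Carbon substrate carriers had 4 of 5 members tested, with 3 lower means and 1 higher (median log2 fold change -0.19), and 0 were called. Slc25a20 was at 234, 281, 251, 251 and 151 CPM in high-fat animals 1 to 5, against 160 to 355 CPM (median 285) in the control group. All high-fat animals except animal 5 lay inside the control range. The log2 fold change was -0.21 ± 0.19 (edgeR adjusted p = 0.974), and -0.09 without high-fat animal 5. Slc25a20 was set against Cpt1b, the muscle enzyme that makes its acylcarnitine substrates. Pearson's r was 0.82 (permutation p = 0.00259; adjusted over 6 relations, 0.00388) and Spearman's rho 0.60 (permutation p = 0.0566; adjusted, 0.0849). Without control animal 6 and high-fat animal 5 r was 0.60 (exact permutation p = 0.0990), so the relation was not shown in the other 9 animals. Slc25a11 had 246, 300, 251, 297 and 205 CPM in the 5 high-fat animals in order, against 211 to 341 CPM (median 254) in controls, and the ranges overlapped. Its means were 260 ± 39.8 CPM (SD, n = 5) against 259 ± 45.8 CPM (SD, n = 6), which gave a fold change (log2) of 0.0031 that turned to -0.0034 under RLE scaling. The citrate carrier gene Slc25a1 (-0.17 ± 0.23), which exports citrate for lipid synthesis, and the dicarboxylate carrier gene Slc25a10 (-0.20 ± 0.19) were low and overlapped between groups.

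Of the enzymes these carriers serve, the carnitine shuttle list had 2 higher and 6 lower means of 8 (median log2 fold change -0.06). The malate-aspartate and citrate shuttle list had 6 higher and 7 lower of 13 (median -0.03). Neither held a called gene. Me1, the cytosolic malic enzyme, had the smallest p of both, at 150 ± 9.86 CPM (SD, n = 5) against 180 ± 23.9 CPM (SD, n = 6), which gave a fold change (log2) of -0.26 ± 0.11 (edgeR adjusted p = 0.974).

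Amino acid carriers had 6 of 7 members tested, with 2 higher and 4 lower means (median log2 fold change -0.08), and 0 were called. Slc25a44, a carrier of branched-chain amino acids, was the steadiest carrier of all. It lay between 20.5 and 26.3 CPM in all 11 animals, and its pooled SD of 0.11 (log2 scale) exceeded that of only 3.75% of genes tested. Its log2 fold change was -0.04 ± 0.09. The glutamate carrier gene Slc25a22 (0.12 ± 0.17), the glycine carrier gene Slc25a38 (-0.13 ± 0.15), the basic amino acid carrier gene Slc25a29 (-0.13 ± 0.18) and the ornithine carrier gene Slc25a15 (0.16 ± 0.19) overlapped between groups. A second ornithine carrier gene, Slc25a2, had 2 to 22 counts per library. High-fat animals 1 to 5 had 1.5, 0.213, 1.76, 0.829 and 0.537 CPM, against 0.751 to 1.71 CPM (median 1.41) in controls (-0.49 ± 0.41), with animals 2 and 5 below all controls. Leaving out high-fat animal 2 gave a log2 fold change of -0.27, and leaving out animal 3 gave -0.81.

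Cofactor carriers were all tested, with 2 higher and 6 lower means of 8 (median log2 fold change -0.05), and 0 were called. Slc25a40, paired with Slc25a39 in the import of glutathione, had the lowest fold change of the family. Its level in high-fat animals 1 to 5 was 0.832, 2.13, 2.18, 3.19 and 2.27 CPM, on 10 to 50 counts per library over all animals, against 2.37 to 3.81 CPM (median 3.1) in the control group. All high-fat animals but animal 4 lay below every control. The log2 fold change was -0.54 ± 0.28 (unadjusted p = 0.072, edgeR adjusted p = 0.974), and -0.34 without high-fat animal 1. Slc25a39, read far more often, had 45.4 ± 6.32 CPM (SD, n = 5) against 48.3 ± 4.98 CPM (SD, n = 6), which gave a fold change (log2) of -0.09 ± 0.11. The coenzyme A carrier gene Slc25a42 (78.3 ± 15.3 against 81.1 ± 25.2 CPM), the S-adenosylmethionine carrier gene Slc25a26, the folate carrier gene Slc25a32, Slc25a16 and the peroxisomal carrier gene Slc25a17 had log2 fold changes between -0.09 and 0.04.

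The 2 iron carriers, the mitoferrins, were Slc25a28, the general form, and Slc25a37, the form of red cell precursors. In Slc25a28, high-fat animals 1, 2, 3 and 5 had 66.3, 65.7, 61.5 and 57.7 CPM and animal 4 a value between those of 3 and 5, against 52.8 to 81.1 CPM (median 66.6) in controls (log2 fold change -0.11 ± 0.10). It was -0.17 without control animal 2 and -0.04 without control animal 6. Slc25a37 was at 2.00, 6.40, 5.36, 3.82 and 3.52 CPM in high-fat animals 1 to 5, against 3.02 to 5.59 CPM (median 3.50) in controls (0.07 ± 0.28). The sign for Slc25a37 turned without high-fat animal 2 (-0.12) or 3 (-0.03) and in limma voom (-0.02) or with the column numbers as a block (-0.02). Their log2 ratio differed by -0.11 between groups (exact permutation test, two-sided, p = 0.723; 0.810 after adjustment for 3 ratios). Erythroid markers were present, summing to 424 to 571 CPM in the control group and 320 to 690 CPM in the high-fat group, with the globin gene Hbb making up most of the sum.

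Of the remaining 4 tested members, 2 had higher and 2 lower means. Slc25a46 sits in the outer membrane and acts in mitochondrial dynamics, at 73.7 ± 4.85 CPM (SD, n = 5) against 76.6 ± 10.9 CPM (SD, n = 6). Slc25a35 was at 21.0, 21.8, 17.9, 21.2 and 16.2 CPM in high-fat animals 1 to 5, against 18.4 to 30.4 CPM (median 21.5) in controls (log2 fold change -0.21 ± 0.14). All 5 high-fat animals lay under the control mean, and the ranges overlapped. Without control animal 4 the log2 fold change was -0.11. Slc25a34 was at 40.7, 60.3, 48.2, 62.4 and 22.2 CPM in high-fat animals 1 to 5, against 33.6 to 66.7 CPM (median 40.9) in controls (0.03 ± 0.25). Slc25a45 had 0.16 ± 0.19.

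Carriers also varied among the animals of a group. The median pooled SD of carriers within groups was 0.30 on the log2 scale, against 0.27 over all genes tested, and the median biological coefficient of variation was 0.209 against 0.191. The pooled SD was under 0.2 for 7 carriers and over 0.5 for 4, which were Slc25a25, Ucp3, Slc25a2 and Slc25a30. Control animal 6 held the highest value of 11 carriers, and high-fat animal 5 the lowest value of 11. In control animal 6, 28 of 36 carriers lay above their own mean, and in high-fat animal 5, 9 did. These 2 animals also stood at 0.37 and -0.46 on the OXPHOS score, the mean log2 deviation of 72 nuclear genes of the respiratory chain and ATP synthase. Their macrophage scores were -0.52 and 1.38. High-fat animal 2 and control animal 5 had lower macrophage scores, -1.20 and -0.91, with OXPHOS scores of 0.14 and -0.03. The lowest OXPHOS scores were -0.46 in high-fat animal 5 and -0.32 in control animal 3. These animals held the highest levels of the adipocyte marker Plin1, at 23.2 and 24.9 CPM. They also held the highest Cfd (283 and 277 CPM) and Retn (14.9 and 22.2 CPM). The adipocyte marker Cidea did not follow, at 49.8 and 60.1 CPM within a range of 32.3 to 88.6 CPM. Control animals 4 and 6, with the highest OXPHOS scores, had Plin1 at 1.78 and 12.9 CPM. The relations among these scores and markers were not tested.

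Slc25a4 and Slc25a3 followed the respiratory chain genes from animal to animal, while Slc25a5 had r = -0.19 with their score. Slc25a4 had Pearson's r = 0.996 with the OXPHOS score over 11 animals (permutation p = 2.00e-05; adjusted over 6 relations, 0.000120) and Spearman's rho = 0.95 (permutation p = 5.00e-05; adjusted, 0.000300). Without high-fat animal 5 and control animal 4 r was 0.997 (exact permutation p = 1.65e-05). Among 10742 genes outside the OXPHOS list, Slc25a4 had the highest r with the score (rank 1), a ranking added after its r had been seen. With values centred within each diet group r stayed at 0.996. Slc25a3 had r = 0.86 (permutation p = 0.00148; adjusted, 0.00296) and rho = 0.82 (permutation p = 0.00302; adjusted, 0.00604), r = 0.96 without those 2 animals (exact permutation p = 0.00106), and ranked 215. In all 5 of 36 carriers (13.9%) had an r over 0.8, against 3.76% of the ranked genes. They were Slc25a4, Slc25a3, Slc25a35, Slc25a20 and Slc25a42, named after their values were seen. The points share library and scaling, so these ranks describe the libraries. The OXPHOS list itself had 69 of 72 lower means in the high-fat group (median log2 fold change -0.12) and 0 called. Over all genes tested, 49.1% were lower. Slc25a4 and Slc25a3 were both at -0.13. The OXPHOS score was 0.07, 0.14, 0.00, -0.05 and -0.46 in high-fat animals 1 to 5, against -0.32 to 0.42 in controls. How far the lower means of the list rest on high-fat animal 5 was not tested.

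**Figure D5:**
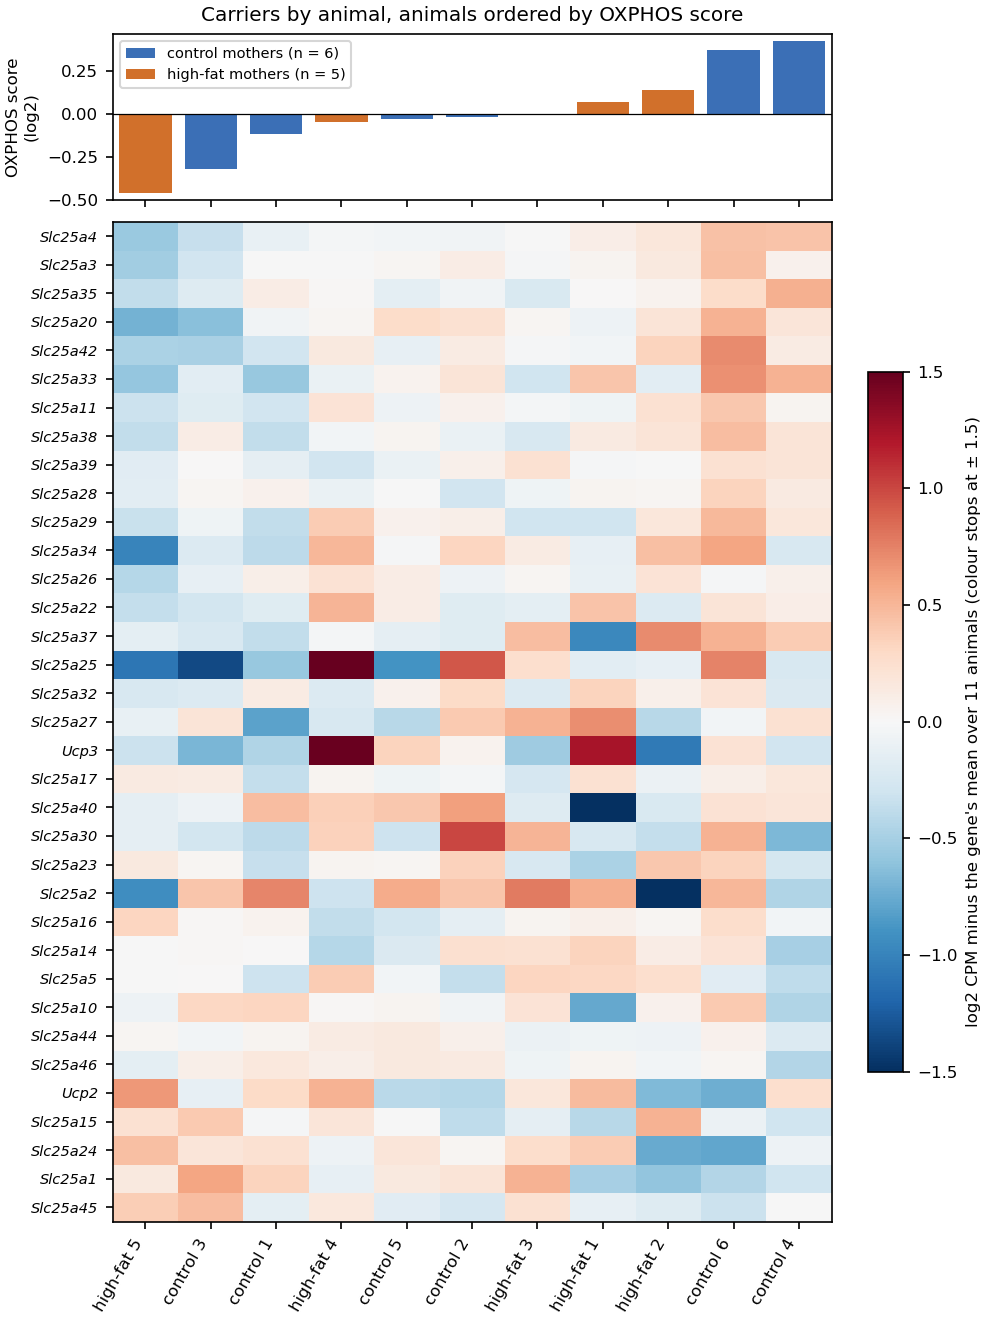
Log2 CPM of 35 of the 36 tested carriers minus its mean over 11 animals (colour, stops at ± 1.5), carriers ordered by their r with the OXPHOS score and animals by that score, which the bars above show in blue (control) and orange (high-fat). The top rows turn from blue to red from high-fat animal 5 to control animal 4, and the lowest rows tend the other way. Control and high-fat animals are mixed along this order.

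The machinery around the carriers was also examined. Of 16 tested genes of carrier import, 2 had higher and 14 lower means (median log2 fold change -0.11), led by Timm9, a chaperone that guides carriers across the intermembrane space, at -0.28 ± 0.14 (edgeR adjusted p = 0.974). Outer membrane channels and partners of nucleotide exchange had 1 higher and 10 lower of 11 (median -0.09), among them the channel gene Vdac1 at -0.19 ± 0.14. A list of other mitochondrial membrane transporters and related genes, Mcart1 among them, had 10 higher and 11 lower of 21 (median -0.03). None of these genes was called. The median over all genes tested was 0.004, and 49.1% of them had lower means. These lists were not examined without single animals.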

How the data were processed

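Poly(A) RNA of 11 soleus muscles was read over 36 cycles (Genome Analyzer IIx), per the labels' protocols. Values are raw counts of reads for each gene symbol, deposited by the authors as 1 table. The submitters' processing notes name FastQC, BWA, HTSeq and edgeR. The sources used here do not give versions, genome build or use of strand. Reads shared with pseudogenes, paralogs or overlapping genes may be lost or misplaced. Animal names in the labels tied columns to animals. Animal numbers here follow accession order and pair nothing.

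The filter was edgeR's filterByExpr, which kept 10814 of 16810 rows, with TMM scaling (factors 0.897 to 1.12). Groups were compared by edgeR's quasi-likelihood F test, with p adjusted by Benjamini-Hochberg (0.05). SE is the log2 fold change over the square root of F. Log2 CPM used a prior count of 2. The 24 rows whose symbols read as dates were not removed. Ratios used exact permutation, and relations 100000 random pairings, or all pairings under 10 animals. The ratio of Slc25a12 to Slc25a13 was planned and not run, since those genes are not analysed here, and levels per coding length were not computed, so CPM was used. Values in every animal, or for many members those of each high-fat animal with the lowest, median and highest control, were printed for the 4 members with the highest median CPM, for Slc25a5, Slc25a12, Slc25a13, Slc25a20, Slc25a28, Slc25a37 and the uncoupling proteins where present, for the 4 smallest p in each direction and for the 3 largest pooled SD at a mean of at least 5 CPM. Up to 4 genes per list were named, by p. Cpt1b, Mcart1, Fabp4, Tnnt3 and Cd74 were named besides these. Some genes enter the counts and are not reported singly here. Roles, promoters and the OXPHOS ranking were chosen after values were seen. Carriers, lists and relations were chosen with earlier results of these data known.

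Counts were simulated for the high-fat against control comparison with 10732 genes, each drawn independently of the others. The test recovered 25.4% of 67 genes changed 1.5-fold, 56.7% of 67 changed 2-fold and 93.9% of 66 changed 4-fold. It called 6 unchanged genes, and 4 changed genes had the wrong sign. These shares hold for that setting and do not give the power for carriers in the data. Alternatives were other scalings, filters and tests, the name letter as a covariate, and leaving out each animal, with the numbers in the column names as a block added after the data were seen. Tools were edgeR 4.0.16, DESeq2 1.42.0 and limma 3.58.1 in R 4.3.3, and SciPy 1.17.1, pandas 2.3.3, NumPy 2.4.6 and matplotlib 3.10.9 in Python 3.11.15.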

Additional observations from a re-analysis of the deposited data

Results flagged for a closer look

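Within-group values of the 36 tested carriers were checked for a single animal far from its group, which gave 5 cases in 72 groups, where chance gives about 1 in 20. In high-fat animal 4, Slc25a25 stood at 196 CPM, against 16.4 to 41.2 CPM in the other high-fat animals. In control animal 4, Slc25a46 stood at 55.1 CPM, against 76.1 to 83.6 CPM in the other controls, and Slc25a2 at 0.751 CPM, against 1.37 to 1.71 CPM. In control animal 6, Slc25a24 stood at 6.54 CPM, against 10.6 to 13.1 CPM. In control animal 3, Slc25a45 stood at 5.75 CPM, against 3.34 to 4.13 CPM.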

How the results depend on the processing

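The sample titles give no numbers that the groups share, but the column names do for 5 pairs, and nothing says that they mark shared litters or days. Animals of 1 number did not deviate together (correlations -0.36 to 0.02), and 0 of 10 correlated best with their own number. As a replicate block, tried after the data were seen and without control animal 2, these numbers gave 0 genes and 0 carriers called and turned Slc25a37 to -0.02. The count of genes called was 7 with DESeq2 and 8 with the likelihood ratio test, and 0 in the other fits, and 0 carriers were called in any. Slc25a11 turned to -0.0034 with RLE scaling, -0.0035 with DESeq2 and -0.01 with upper quartile scaling or the name letter, and Slc25a37 to -0.02 with limma voom. Slc25a34 turned to -0.03 with limma voom and -0.02 with the name letter. Without 1 animal these ran from -0.05 to 0.10 (Slc25a11), -0.12 to 0.24 (Slc25a37) and -0.10 to 0.21 (Slc25a34), and Slc25a25 from -0.21 to 1.15. The ratio difference ran from -0.70 to -0.47 for Slc25a4 to Slc25a5, from -0.38 to 0.10 for Ucp3 to Ucp2 and from -0.37 to 0.04 for the mitoferrins. The relation of Ucp3 with fat weakened to r = 0.63 with library size scaling (adjusted permutation p = 0.0519) and r = 0.01 without the 2 farthest animals, and ran from 0.52 to 0.74 without 1 animal. Without 1 animal that with insulin ran from 0.36 to 0.84. That of Slc25a20 with Cpt1b fell to r = 0.60 without the 2 farthest. Slc25a4 and Slc25a3 with the OXPHOS score and Ucp2 with the macrophage score passed in every alternative run. Levels per coding length were planned and not run. The causes were not tested. Slc25a2 had 2 to 22 counts and Slc25a40 10 to 50 counts per library, and the part of depth in their values was not tested.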
